A study of Homo sapiens with 9 samples.

Results

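The S100 proteins are a family of small calcium-binding proteins, and the transcripts of 10 of its genes (S100A2, S100A3, S100A4, S100A6, S100A10, S100A11, S100A13, S100A14, S100A16 and S100P) were followed in RNA-Seq libraries of H1975 cells, a human lung adenocarcinoma line. The members were matched by gene symbol among the 61544 genes listed for each library, and all 10 were among the 18653 genes that passed the filter on low counts. They were chosen with earlier results of these data known. S100A4 was selected on its measured difference between cells with wild-type and with NLS-mutant GRP78, so that difference is described without a test, and the same contrast is given as a description for the other members. The list does not follow expression strictly, since S100A9, which is not a member, had a mean of 4.26 CPM (read counts scaled to a common library size), against 2.68 CPM for S100P, the lowest member.

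GRP78, encoded by HSPA5, is a chaperone of the endoplasmic reticulum (ER), and the study asked what it does to transcription when it enters the nucleus. All cells first received si78, a small interfering RNA against the untranslated end of the endogenous GRP78 message, and then 1 of 3 plasmids. These were the empty pcDNA3 plasmid (vector), F-78(WT), called WT here, a FLAG-tagged wild-type GRP78 that lacks the si78 target, or F-78(NLS Mut), called NLS Mut, in which 3 lysines of the nuclear localization signal (NLS) were replaced by alanine. Each group had 3 libraries, and no cells without si78 were analysed here. The labels do not say whether replicates came from separate cultures, so p-values measure the spread between these libraries, which may be technical. The cells are 1 line with plasmid-driven GRP78, a bulk measurement in which fewer expressing cells and less RNA per cell cannot be told apart.

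S100 proteins carry a pair of EF-hand motifs that bind calcium, and most work as dimers that expose a binding surface when calcium is bound and then attach to target proteins. S100A4 binds non-muscle myosin heavy chains and is known for its link to cell motility and metastasis. S100A10 is an exception in the family because its EF hands no longer bind calcium. It is held in a complex with annexin A2 at the plasma membrane. S100A6, S100A11 and S100P also bind annexins or other cytoskeletal partners, and several members can be released and act on receptors such as RAGE (AGER).

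The libraries held 17671055 to 27476298 reads counted on genes. HSPA5 had 378 ± 17.1 CPM in vector, 5664 ± 572 CPM in WT and 4961 ± 195 CPM in NLS Mut (mean ± SD, n = 3 each), so both GRP78 plasmids raised the message as labelled (the counts do not separate plasmid from endogenous message). WT exceeded NLS Mut by 0.19 ± 0.05 SE on the log2 scale (edgeR quasi-likelihood test with Benjamini-Hochberg adjustment, adjusted p = 0.079), and this difference in GRP78 message passed the threshold in 9 of 19 alternatives. The epithelial identity of the line was visible in KRT8 (1588 CPM), KRT7 (1296 CPM), KRT19 (813 CPM), EPCAM (201 CPM) and NKX2-1 (27.3 CPM), averaged over the 9 libraries, while the surfactant gene SFTPB had 0.39 CPM. PTPRC, which marks leukocytes, had 12 reads in all 9 libraries together, and CD3E, CD68, LYZ and the fibroblast gene DCN had none. Reads that were ambiguous between genes (9.12% to 9.81% of reads) were not counted. Overlaps of these markers with other genes were not checked, so a count of 0 need not mean absence. CD14 (7.78 CPM) and PDGFRB (8.93 CPM) were measured at low levels. Counts rose with GC content most in vector replicates 2 and 3, with slopes of 0.108 and 0.117 on the log2 scale per 10 points of GC. The slope was -0.045 in vector replicate 1, and from -0.081 (WT replicate 1) to 0.033 (WT replicate 2) in the libraries with GRP78 plasmids. The members are GC-rich (52.8% to 60.2% of bases in the longest transcript of each gene, median 55.2%). The median was 48.6% over the 18187 tested genes with a value. Results that rest on vector replicate 1 are also given without it, which keeps both vector libraries of high slope. A GC and length correction of all libraries was also fitted.

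Of the members, 9 sit in the S100 cluster of chromosome 1, and S100P stands alone on chromosome 4 (GRCh38, GENCODE 29 coordinates). All of the chromosome 1 members lie on the minus strand. S100A10 (151982915 to 151994390) and S100A11 (152032506 to 152047907) form the outer end, followed by S100A6 (153534599 to 153536244), S100A4 (153543613 to 153550136), S100A3 (153547329 to 153549372), S100A2 (153561108 to 153567890), S100A16 (153606886 to 153613145), S100A14 (153614255 to 153616986) and S100A13 (153618787 to 153631360). S100P lies on the plus strand of chromosome 4 from 6693069 to 6697170. S100A3 lies within the span of S100A4, but the annotated exons of both genes share 0 bases. S100A13 shares 235 exonic bases, 10.6% of its exonic length, with S100A1 on the opposite strand. It also shares 536 exonic bases, 24.2% of its exonic length, with ENSG00000271853 on the same strand, which had 0 reads. Since the counts do not use strand, reads in the stretch shared with S100A1 cannot be assigned between S100A13 and S100A1. The S100A13 values are uncertain to the extent of both overlaps. S100A11 has pseudogenes, of which S100A11P2 had 18 and S100A11P1 had 5 reads in all libraries together, against 111532 for S100A11.

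The stretch upstream of S100A4 is shown because this is the member that differed most between both GRP78 forms, and because the study looked at E-box motifs in the promoters of responding genes. An E-box is the 6-base sequence CANNTG, which bHLH factors bind, and it reads as CANNTG on both strands. In the 250 bases before the start of the RefSeq transcript, the S100A4 window held 1 E-box. The part of that window outside annotated exons is chr1:153545886-153546056 (GRCh38.p14, minus strand, 171 bases, printed 5′ to 3′ with the E-box in capitals).
S100A4 upstream: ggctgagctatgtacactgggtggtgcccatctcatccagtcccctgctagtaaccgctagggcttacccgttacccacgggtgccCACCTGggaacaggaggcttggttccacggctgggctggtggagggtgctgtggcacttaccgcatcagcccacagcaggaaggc

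The E-box of S100A4 began 164 bases before the start, and it is of the kind CAGGTG, which reads CACCTG on the other strand. S100A14, S100A16 and S100P held the same letters, and 1 such site of each is printed for comparison, with the E-box in capitals (S100A16 held 2). The windows are chr1:153616326-153616351 for S100A14 and chr1:153613311-153613340 for S100A16, both on the minus strand, and chr4:6693648-6693677 for S100P on the plus strand.
S100A14: aagagctgagctCAGGTGagctggct
S100A16: atcccagtgaccCAGGTGagaaaggcaggt
S100P: ggcgccgagacaCAGGTGaacactgtaaaa

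An E-box of any kind was present in 7 of the 10 upstream windows, against 62.2% of 27305 RefSeq promoter windows of the same length. CAGGTG or CACCTG was present in 4 of 10, against 17.5% of all windows, and CACGTG, the site read by MYC and its partners, in 0 of 10, against 6.5%. S100A3, S100A10 and S100A11 had no E-box in these 250 bases. The genes with the CAGGTG letters did not all have the same order of the group means. S100A4 was lowest in NLS Mut, S100P was lowest in WT, S100A14 was highest in vector, and S100A16 was nearly level. All of them had a negative log2 fold change in NLS Mut against vector, as did the other members. The values were -0.66 (S100A4), -0.56 (S100A14), -0.08 (S100A16) and -0.71 (S100P). The part of the motif in these values was not tested. TATAAA was found in S100A4 (31 bases before the start, outside the printed stretch) and S100P (28 bases), against 11.1% of windows.

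Expressed per kilobase of exon, the members spanned a wide range. The order over the 9 libraries was S100A6 (mean 818 CPM per kb), S100A11 (789), S100A10 (235), S100A16 (124), S100A4 (19.8), S100A14 (14.2), S100A3 (7.18), S100A2 (5.00), S100A13 (2.24) and S100P (2.09). S100A6 and S100A11 did not separate, since S100A6 was the higher of them in 4 of 9 libraries. S100A13 and S100P also did not separate, S100A13 being higher in 5 of 9. S100A4 exceeded S100A14, and S100A3 exceeded S100A2, in each of the 9 libraries although the ranges of each pair overlapped across libraries. The remaining neighbours in the order had ranges that did not overlap. The order depends on the annotated exonic lengths, which may differ from those behind the counts. By mean CPM, without length, S100A2 exceeded S100A3 (7.84 against 6.86 CPM). S100A6 exceeded S100A11 (795 against 536 CPM), and S100A13 exceeded S100P (4.97 against 2.68 CPM). S100A4 exceeded S100A14 (20.3 against 18.1 CPM), but not in every library, as in NLS Mut replicate 2 (13.3 against 15.4 CPM). The S100A13 length includes the stretches shared with other genes. The 10 members together held 0.199% to 0.22% of the counted reads in vector, 0.175% to 0.214% in WT and 0.178% to 0.183% in NLS Mut, and this sum is mostly S100A6, S100A11 and S100A10.

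**Figure D1:**
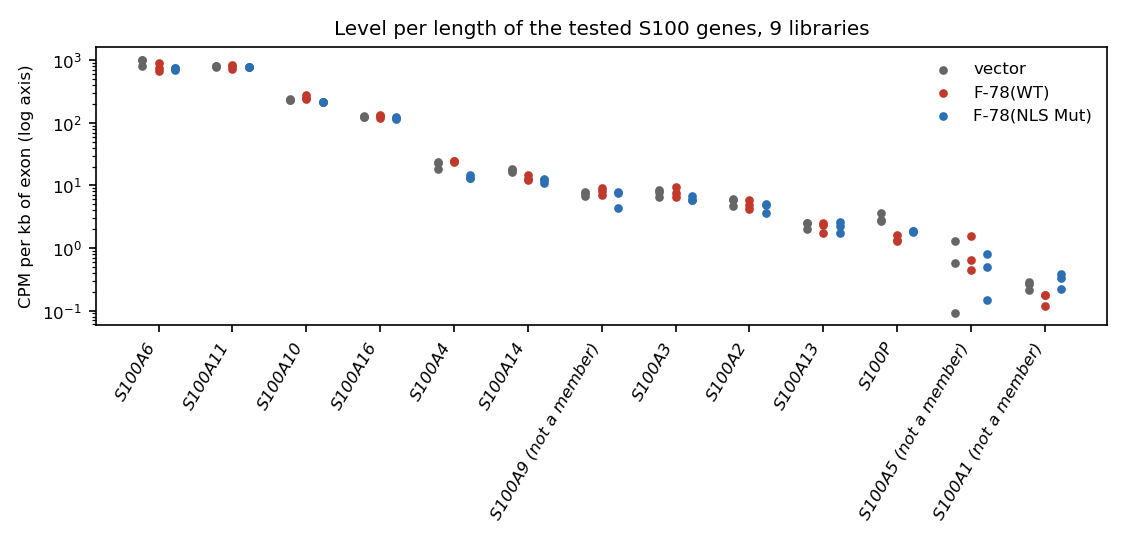
Levels of the 10 members and of S100A9, S100A5 and S100A1, which are not members, in CPM per kilobase of exon on a log axis, 1 point per library, coloured by group. S100A6 and S100A11 lie together at the top. S100A4 lies at a middle level, and its NLS Mut points fall below both other groups, as do those of S100A10.

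S100A4 was lowest in cells with the NLS mutant. Its level was 23.5, 24.1 and 18.7 CPM in the vector libraries (replicates 1 to 3), 24.7, 23.9 and 25.5 CPM in WT, and 15.1, 13.3 and 13.6 CPM in NLS Mut. All 3 NLS Mut libraries lay below all 6 others, and the lowest of those others was vector replicate 3. The counts behind these values were 504 to 665 reads in vector, 529 to 621 in WT and 240 to 340 in NLS Mut. WT against NLS Mut gave a log2 fold change of 0.82 ± 0.12 (SE), a 1.77-fold higher level. This is the contrast for which S100A4 was selected, and it stands as a description.

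Against vector, S100A4 did not separate in WT but was lower in NLS Mut. The log2 fold change of WT was 0.16 ± 0.12 SE (edgeR quasi-likelihood test, adjusted p = 0.63), and the groups overlapped. NLS Mut fell below vector by 0.66 on the log2 scale (SE 0.12, edgeR adjusted p = 0.0044), lower in 3 of 3 libraries. That test uses the NLS Mut libraries on which S100A4 was selected, so it is not independent of the choice. Without vector replicate 2 or without NLS Mut replicate 2, its adjusted p was 0.052 and 0.063. Without vector replicate 1 the gene was still called, at a log2 fold change of -0.62.

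S100A10, the annexin A2 partner, showed a smaller difference in the same direction. Its level was 360, 373 and 354 CPM in vector, 370, 428 and 384 CPM in WT, and 328, 332 and 331 CPM in NLS Mut. The NLS Mut libraries lay close together and below all 6 others, while the highest value was in WT replicate 2. The log2 fold change between WT and NLS Mut was 0.25 ± 0.06 SE. With 1 library left out it ranged from 0.20 (without WT replicate 2) to 0.30. Against vector the values were 0.12 ± 0.06 SE for WT (edgeR adjusted p = 0.39) and -0.13 ± 0.06 SE for NLS Mut (edgeR adjusted p = 0.31). With a correction for GC content and length, the gene was called higher in WT than in vector, at 0.22 (edgeR adjusted p = 0.0084).

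**Figure D2:**
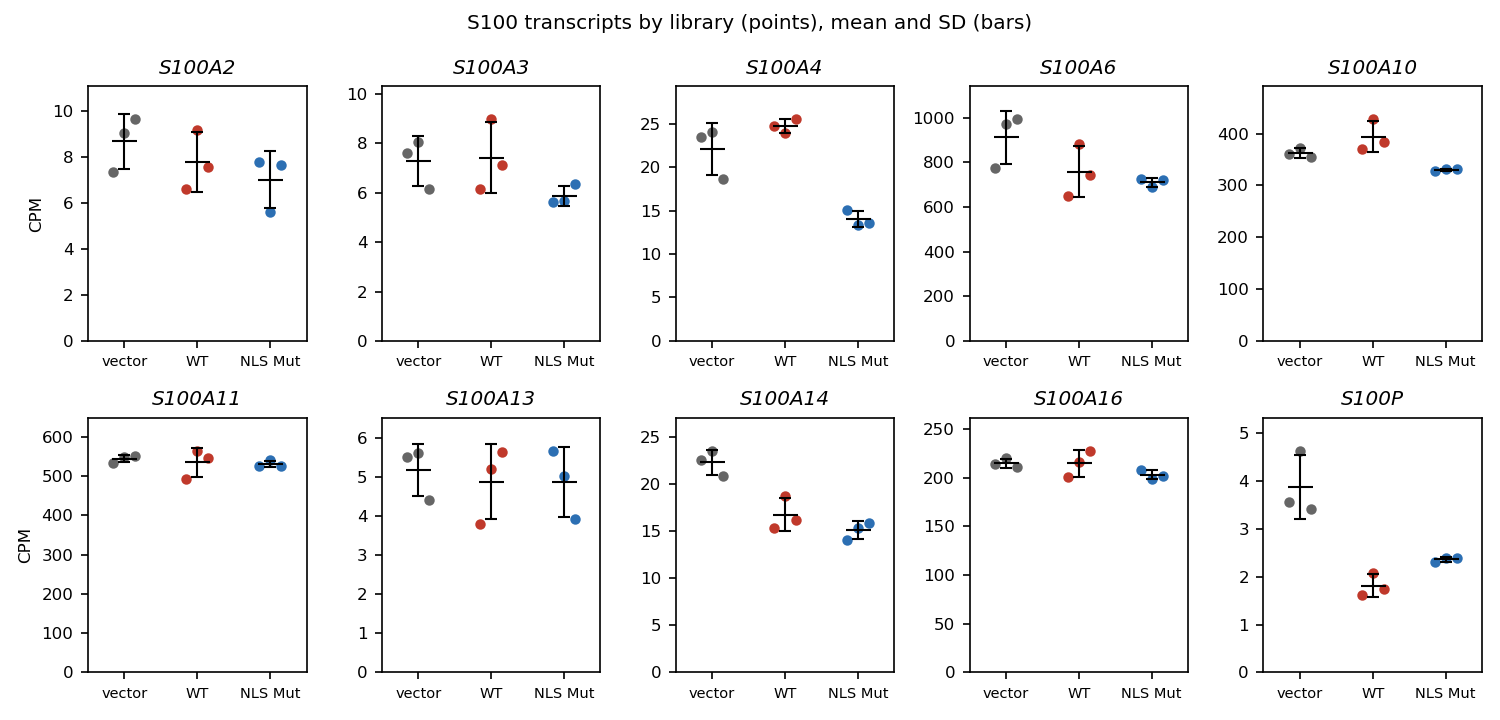
Level of each member in CPM in every library (points) with the mean and SD of each group (bars), each panel on its own axis from 0. S100A4 and S100A10 have their 3 NLS Mut points below all other points, S100A14 and S100P have their 3 vector points above all others, and S100A11 and S100A13 show no separation.

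S100A6, S100A14 and S100P had their highest group means in vector. S100A6, also called calcyclin, binds annexins and the calcyclin-binding protein CACYBP. It was at 777, 970 and 994 CPM in vector, 651, 881 and 743 CPM in WT, and 724, 689 and 722 CPM in NLS Mut. Vector and WT overlapped because of vector replicate 1 and WT replicate 2, while all NLS Mut libraries lay below all vector libraries. S100A6 fell by 0.36 on the log2 scale from vector to NLS Mut (SE 0.08, edgeR adjusted p = 0.020), but DESeq2 did not call it (adjusted p = 0.12). WT against vector gave -0.27 ± 0.08 SE (edgeR adjusted p = 0.12). Without vector replicate 1 this became -0.37 (edgeR adjusted p = 0.00014), and without WT replicate 2 it was -0.39 (edgeR adjusted p = 0.0047), so whether S100A6 was called in WT turned on single libraries.

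S100A14, a member found mainly in epithelial cells, was at 22.6, 23.6 and 21.0 CPM in vector, 15.4, 18.8 and 16.2 CPM in WT, and 14.1, 15.4 and 15.9 CPM in NLS Mut. All vector libraries were above all libraries with either GRP78 form, whose ranges overlapped each other. The gene fell by 0.56 from vector to NLS Mut on the log2 scale (SE 0.12, edgeR adjusted p = 0.018). From vector to WT the value was -0.41 ± 0.12 SE (edgeR adjusted p = 0.12), which became -0.50 and passed the threshold without WT replicate 2 (edgeR adjusted p = 0.045). Both comparisons share the vector libraries. The difference between WT and NLS Mut was 0.15 ± 0.12 SE.

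S100P, first described in placenta and raised in several carcinomas, had few reads (36 to 128 per library), and its values carry the largest standard errors of the members. It was at 3.56, 4.63 and 3.41 CPM in vector, 1.63, 2.08 and 1.74 CPM in WT, and 2.31, 2.39 and 2.38 CPM in NLS Mut. The 3 groups did not overlap, with vector highest and WT lowest. WT was at -1.09 ± 0.28 SE against vector on the log2 scale (edgeR adjusted p = 0.068) and NLS Mut at -0.71 ± 0.28 SE (edgeR adjusted p = 0.26), neither past the threshold. Without vector replicate 1 the first of these passed it, at -1.14 (edgeR adjusted p = 0.022), and so it did without WT replicate 2, at -1.20 (edgeR adjusted p = 0.047). WT against NLS Mut gave -0.38 ± 0.29 SE, the only member for which this contrast was negative.

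The other 5 members were not called in any comparison. S100A11, a binding partner of annexin A1, was at 492 to 564 CPM in WT, the widest of its groups, which held both its lowest and its highest library, and its log2 fold changes were 0.01 (WT against NLS Mut), -0.03 (WT against vector) and -0.04 (NLS Mut against vector), each with an SE of 0.05. S100A16 was at 211 to 220 CPM in vector, 201 to 228 CPM in WT and 199 to 208 CPM in NLS Mut, and its NLS Mut range lay just below the vector range at -0.08 ± 0.06 SE (edgeR adjusted p = 0.60). S100A2, known from squamous and basal epithelium, ranged from 5.61 to 9.66 CPM and S100A3 from 5.61 to 8.97 CPM over the 9 libraries. S100A3 had a log2 fold change of 0.34 ± 0.19 SE between WT and NLS Mut, with overlapping groups. S100A13, which takes part in the release of FGF1, ranged from 3.80 to 5.67 CPM, and its fold change between WT and NLS Mut was 0.00 ± 0.22 SE on the log2 scale. At 1034 to 1640 reads in all 9 libraries together, a difference of the size seen for S100A10 would not be detectable in S100A2, S100A3 or S100A13, whose standard errors were 0.18 to 0.22.

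Counted over the list, WT exceeded NLS Mut in 9 of 10 members, and 2 of them (S100A4 and S100A10) passed the edgeR threshold as higher, where 0.300% of all tested genes did. This count comes from the contrast behind the choice and nothing is read from it. The groups did not overlap for 3 members (S100A4, S100A10 and, in the other direction, S100P), against 17.7% of tested genes. The median log2 fold change of the members was 0.12, beside -0.01 over all tested genes. It was 0.21 without WT replicate 1 and 0.05 without WT replicate 2.

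WT against vector gave 0 called members of 10 by edgeR and 0 by DESeq2, where edgeR called 0.558% of tested genes in either direction. At an unadjusted p under 0.05 there were 4 (S100A6, S100A10, S100A14 and S100P), where 11.7% of tested genes were. S100A14 and S100P were lower with no overlap of the groups, which held for 6.54% of tested genes. The member median was -0.05, beside 0.00 over all tested genes. With 1 library left out, members were called in 2 of 9 fits: without vector replicate 1 (S100A6 and S100P, where 6.33% of all tested genes were called) and without WT replicate 2 (S100A6, S100A14 and S100P, where 1.64% were). There was 1 called member with no filter, with the replicate block and with the GC and length correction, where 0.806%, 1.24% and 1.04% of all tested genes were called.

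In NLS Mut against vector all 10 members had a negative log2 fold change, from -0.04 (S100A11) to -0.71 (S100P), with a median of -0.31 beside 0.00 over all tested genes. With the GC and length correction S100A11 was at 0.026. Over the 19 alternatives, which include that correction, sizes varied. The values ran from -0.77 to -0.59 for S100A4, -0.62 to -0.51 for S100A14 and -0.47 to -0.24 for S100A6. They ran from -0.16 to -0.057 for S100A10 and from -0.11 to -0.0057 for S100A16. In the main fit 3 members were called lower (S100A4, S100A6 and S100A14), where 0.499% of tested genes were. The S100A4 call is not independent of its selection, which used the same NLS Mut libraries. The same 3 were called with the GC and length correction, where 1.34% of tested genes were in either direction. The groups did not overlap, with NLS Mut lower, for 6 members (S100A4, S100A6, S100A10, S100A14, S100A16 and S100P), against 8.82% of tested genes. The calls depended on single libraries. Without vector replicate 2 or NLS Mut replicate 2 no member was called, where 0.259% and 0.171% of all tested genes were called in either direction. Without NLS Mut replicate 1 or 3 only S100A4 was, where 0.257% and 0.251% were. Without vector replicate 1 the same 3 were called, where 5.05% of all tested genes were, against 0.793% with all libraries.

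**Figure D3:**
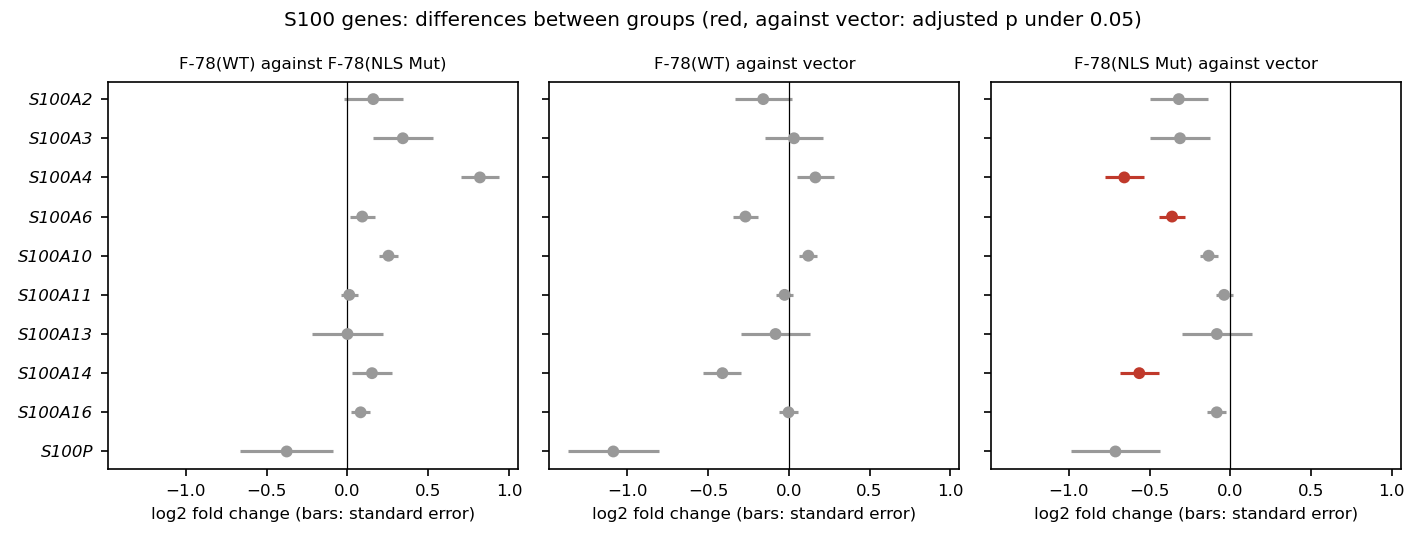
Log2 fold change of each member in the 3 comparisons, with bars of 1 standard error, and red for members past the edgeR threshold against vector. All 10 points lie below 0 in NLS Mut against vector, and S100P lies lowest in each panel.

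**Figure D4:**
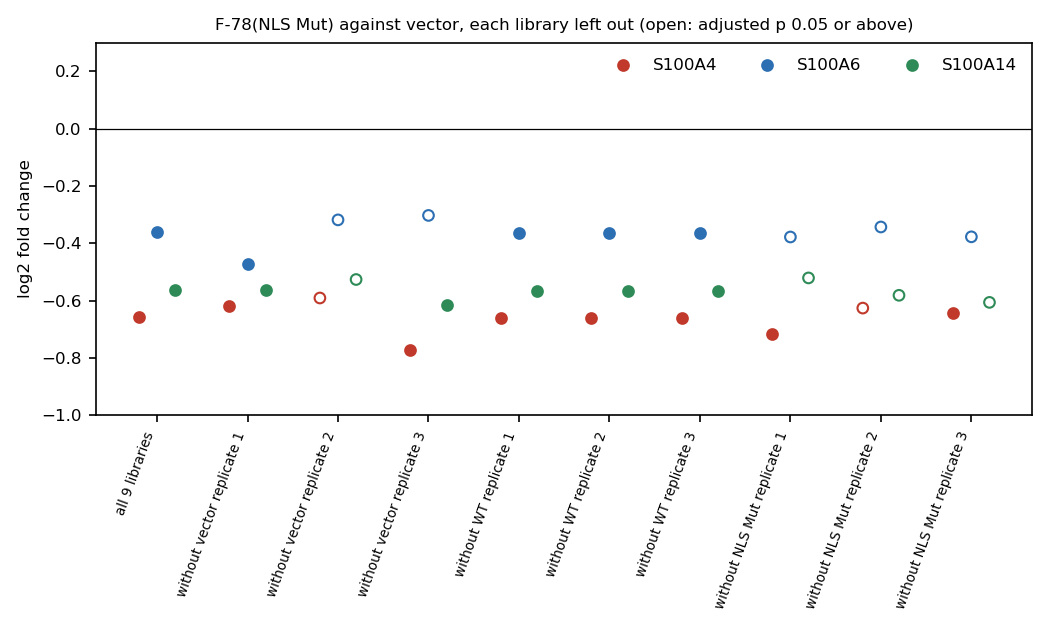
Log2 fold changes of the called members in NLS Mut against vector, with all 9 libraries and with each library left out, filled where the member was called and open where it was not. With a library left out, S100A6 kept its call in 4 of 9 fits.

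Over the 19 alternatives the log2 fold change between WT and NLS Mut ranged from 0.79 to 0.88 for S100A4 and from 0.20 to 0.30 for S100A10, given as a description. In NLS Mut against vector, S100A4 was called in 17 of 19 alternatives, S100A14 in 15 and S100A6 in 13, each with a negative value throughout. For S100A4 these calls are not independent of its selection.

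Over the 9 libraries the members did not vary as 1 block. The correlation of log2 CPM (Pearson, a description over 9 libraries that share the 3 groups) was 0.82 between S100A4 and S100A10, 0.84 between S100A3 and S100A10, 0.87 between S100A2 and S100A6, and 0.82 between S100A14 and S100P. It was 0.00 between S100A4 and S100P and -0.15 between S100A10 and S100P. S100A4 and S100A3, whose spans overlap, had 0.70.

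The 5 genes whose pattern over the 9 libraries was most like that of S100A4, among 15034 tested genes averaging 1 CPM or more, were HSPG2 (r = 0.97), C3 (0.96), TNC (0.96), FBLN2 (0.95) and CALCOCO1 (0.95). Since they were picked by this correlation, and S100A4 by its difference between WT and NLS Mut, the shared pattern follows from the choice. HSPG2 encodes perlecan and TNC tenascin C, both proteins of the extracellular matrix, as is fibulin 2 from FBLN2, and C3 is a complement component. C3 was at 590 ± 15.8 CPM in vector, 659 ± 6.44 CPM in WT and 472 ± 26.4 CPM in NLS Mut (mean ± SD, n = 3), and HSPG2 at 260 ± 4.88, 275 ± 6.42 and 213 ± 5.73 CPM. Vector replicate 3 is where they parted, since S100A4 was below its own mean there and C3 and HSPG2 were not.

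**Figure D5:**
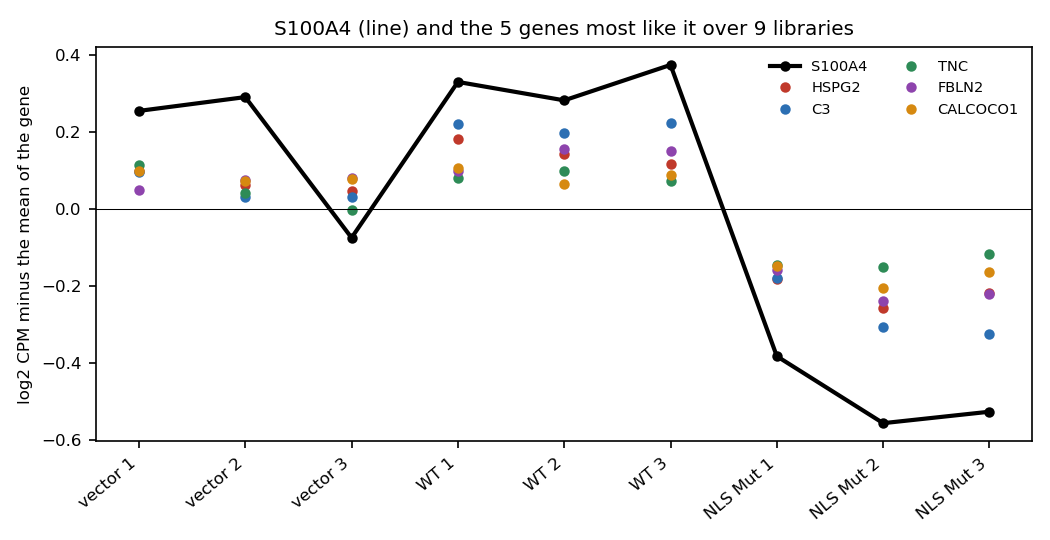
Log2 CPM of S100A4 (line) and of the 5 genes most like it (points) in each library, each gene centred on its own mean over the 9 libraries. All 6 genes lie below their mean in the 3 NLS Mut libraries and above it in the 3 WT libraries, which follows from how they were chosen. S100A4 has the widest swing.

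The rest of the family was scarce. Of 11 other S100 genes, 3 passed the filter, and none was called in any comparison by edgeR or DESeq2 (0 at an unadjusted p under 0.05). Among all tested genes edgeR called 0.504% to 0.793% in either direction, and 11.6% to 12.2% had such an unadjusted p. S100A9, a component of the inflammatory complex calprotectin, was at 4.26 ± 0.30 CPM in vector, 4.70 ± 0.63 CPM in WT and 3.81 ± 1.09 CPM in NLS Mut (mean ± SD, n = 3). Its partner S100A8 had 36 reads in all 9 libraries together. S100A1 and S100A5 had means of 0.73 and 0.52 CPM. S100Z had 15 reads, S100A7 and S100A12 had 7 each, S100G had 6, and S100A7A, S100A7L2 and S100B had none.

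Among 25 genes of S100 partners and receptors, all of them tested, none was called between WT and NLS Mut by edgeR, where 0.504% of tested genes were. DESeq2 called 1 (NCL), where it called 2.5% of its tested genes, and the GC and length correction gave 4, where 2.39% were called. An unadjusted p under 0.05 was found for 9, and for 11.6% of all tested genes. ANXA2, which holds S100A10 at the membrane, was at 935 ± 1.40 CPM in vector, 1046 ± 23.1 CPM in WT and 971 ± 41.0 CPM in NLS Mut (mean ± SD, n = 3), a log2 fold change of 0.11 ± 0.05 SE between WT and NLS Mut (edgeR adjusted p = 0.34). MYH9, the non-muscle myosin heavy chain that S100A4 binds, had a mean of 2485 CPM and a log2 fold change of -0.03 ± 0.04 SE (edgeR adjusted p = 0.84). AHNAK, a large scaffold that binds the S100A10 and annexin A2 complex, was the 1 partner called in WT against vector, where 0.214% of tested genes were called higher. It rose by 0.26 ± 0.06 SE (edgeR adjusted p = 0.037), but was called in 9 of 19 alternatives and not by DESeq2 (adjusted p = 0.15), which called ANXA2 instead. MYH14, another non-muscle myosin heavy chain, was the 1 partner called in NLS Mut against vector, where 0.499% of tested genes were called lower. It fell by 0.46 on the log2 scale (SE 0.08, edgeR adjusted p = 0.0037). The receptors AGER (1.16 CPM) and TLR4 (0.78 CPM) were low. The partner medians were 0.04, 0.04 and 0.03 on the log2 scale in WT against NLS Mut, WT against vector and NLS Mut against vector.

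Of 29 protein-coding genes of other families within 250 kb of a member, 26 were tested, and none was called by edgeR or DESeq2 in any of the 3 comparisons. Among all tested genes edgeR called 0.504% to 0.793% in either direction, and DESeq2 2.15% to 3.77%. An unadjusted p under 0.05 was found for 2 neighbours in each comparison, and for 11.6% to 12.2% of all tested genes. The median log2 fold change of the neighbours was 0.05 between WT and NLS Mut, -0.03 in WT against vector and -0.04 in NLS Mut against vector.

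Of the 9 epithelial markers, 2 were called between WT and NLS Mut, both higher, where 0.300% of tested genes were called higher. These were CDH1 (0.27 ± 0.06 SE, edgeR adjusted p = 0.036) and KRT19 (0.23 ± 0.05 SE, edgeR adjusted p = 0.044). By sign, 6 of the 9 were higher and 3 (EPCAM, KRT7 and NAPSA) were lower. Against vector, NLS Mut had only CDH1 called, at -0.25 ± 0.06 SE (edgeR adjusted p = 0.044), where 0.499% of tested genes were called lower, and it kept that call in 13 of 19 alternatives and in 3 of 9 with a library left out. All 9 epithelial markers had a negative value in the last comparison, with a median of -0.16. CDH1 and KRT19 kept their calls between WT and NLS Mut in 14 and 14 of 19 alternatives. None of the tested markers of leukocytes (2 of 6 tested), endothelium (3 of 3) or fibroblasts and muscle (2 of 5) was called by edgeR in any comparison. Among all tested genes edgeR called 0.504% to 0.793% in either direction. Of these markers, ITGAM in WT against vector and PDGFRB in WT against NLS Mut had an unadjusted p under 0.05, as had 11.7% and 11.6% of all tested genes. The part of the epithelial markers in the S100 values was not tested, nor was that of the HSPA5 difference.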

How the data were processed

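RNA-Seq libraries of H1975 cells were used, 3 per group and grouped by their labels. What the authors deposited are raw counts of reads on each gene. Their processing notes name STAR 2.7.9a, DESeq2 1.36.0 and GRCh38.p14; the annotation release is not given in the sources used here. The unstranded counts were taken, as 50.6% to 51.9% of reads fell on the forward strand. Summary lines that name no gene (27.6% to 30.7% of reads) were left out. Symbols were known for 61445 of 61544 genes, and coordinates and exonic lengths came from GENCODE 29 (58298 genes matched).

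All 9 libraries entered 1 edgeR 4.0.16 quasi-likelihood fit in R 4.3.3 (TMM factors 0.989 to 1.02, filterByExpr, 18653 genes, Benjamini-Hochberg adjustment over all of them, threshold 0.05). CPM uses TMM library sizes, and the SE is the size of the log2 fold change over the square root of the F statistic. The median biological coefficient of variation was 11.2%. Promoter windows came from RefSeq. Procedures were tested on simulated data.

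Named genes were the members, the genes of lists written by hand (other S100 genes, partners and receptors, cell type markers), HSPA5, genes within 250 kb as counts, and the 5 genes most correlated with S100A4. The members and lists were chosen with earlier results of these data known. Alternatives were DESeq2 1.42.0, its size factors, library size alone, other filters, both strands summed, only 2 groups, a replicate block, GC and length correction (loess, span 0.3), both together, a threshold of 0.01 and leaving out each library.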

Additional observations from a re-analysis of the deposited data

How the results depend on the processing

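With 3 libraries per group, low members such as S100P and S100A13 carry the largest errors. The labels do not say whether replicate numbers pair the libraries. Correlations of deviations between libraries of the same number were -0.024 to 0.059, beside -0.051 to 0.023 for unlike numbers. Same-number pairs with a vector library were all above 0, and those of WT and NLS Mut all below. The fit with a replicate block gave 2, 1 and 3 called members in WT against NLS Mut, WT against vector and NLS Mut against vector, where the fit without it gave 2, 0 and 3. The block fit called 1.14%, 1.24% and 1.23% of all tested genes, against 0.504%, 0.558% and 0.793% without the block. In WT against NLS Mut 1 member (S100A4) was called at the stricter threshold and 1 to 2 with a library left out. S100A4 was selected on that contrast, so its counts of calls are a description and nothing is read from them. In WT against vector the count of called members was 1 with no filter, the GC and length correction or the block with that correction, and 0 to 3 with a library left out. In NLS Mut against vector it was 1 at the stricter threshold and 0 to 3 with a library left out. Called partners in WT against NLS Mut (0 in the report) were 1 by DESeq2, 1 with no filter, 2 with only these groups, 4 with the GC and length correction, 5 with the block and that correction, and 0 to 2 with a library left out. In WT against vector (1 in the report) they were 0 at the stricter threshold, with library size alone or with only these groups, and 0 to 6 with a library left out. In NLS Mut against vector (1 in the report) they were 3 by DESeq2, 2 with the GC and length correction, 2 with the block and that correction, and 0 to 4 with a library left out. Among the libraries left out, the highest counts of partners came without vector replicate 1. That fit also called the highest shares of all tested genes, 1.95%, 6.33% and 5.05% in these comparisons. By DESeq2 the shares were 2.5%, 2.15% and 3.77%, and with the GC and length correction 2.39%, 1.04% and 1.34%. No other S100 gene was called in any of these settings. The cause was not tested.

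Members that changed sign were near 0 and not called. In WT against NLS Mut, S100A13 was at -0.0035 with library size alone. In WT against vector, S100A16 was at 0.0032 by DESeq2, 0.0038 with its size factors, 0.0029 with the stricter filter, 0.0065 with both strands summed, 0.10 with the GC and length correction and 0.10 with the replicate block and that correction. S100A11 was at 0.054 and 0.053 in those last fits, and S100A13 at 0.0040 in the last. In NLS Mut against vector S100A11 was at 0.026 and 0.024 there. With a library left out, the log2 fold changes in WT against NLS Mut ranged from -0.021 to 0.20 for S100A6, from -0.021 to 0.074 for S100A11 and from -0.12 to 0.16 for S100A13. In WT against vector they ranged from -0.13 to 0.15 for S100A3, from -0.063 to 0.031 for S100A11, from -0.19 to 0.069 for S100A13 and from -0.042 to 0.046 for S100A16. In NLS Mut against vector they ranged from -0.21 to 0.039 for S100A13.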
